A study of Homo sapiens with 16 samples.

Results

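PIP5K1A, AATF, NEK1, PKMYT1 and DEDD are 5 human genes that lost ribosome footprints within 30 min of rocaglamide A (RocA), picked for that loss from the 19382 protein-coding genes named in these data. Ribosome profiling counts the short RNA fragments that ribosomes shield from nuclease, and a footprint count is read here as ribosomes on a coding sequence. The libraries came from 4 established cancer cell lines, all labelled wild type: NCI-H1650 and NCI-H520, both from lung, with A375 and Hs 936.T, both from melanoma. Each line was given the vehicle DMSO (2 libraries), 0.3 µM RocA (1 library) or 3 µM RocA (1 library) for 30 min, 16 libraries in all. No mRNA levels were used here, so fewer ribosomes per mRNA and less mRNA cannot be told apart, and all values are relative to the other footprints of the same library. For each gene the transcript entry with the highest count over the 16 libraries was taken, and the first in file order where entries tied in count and length. Because the genes were chosen by their response to RocA, their RocA values are a description with no test, whereas their levels in the lines under DMSO played no part in the choice and were tested.

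RocA is a plant compound that clamps the helicase eIF4A, which opens the 5′ leader of mRNAs for the scanning ribosome, onto stretches of purines (A and G), and the series also names the helicase DDX3 as a target. Scanning then stalls in the leader, so mRNAs can differ in how many ribosomes they keep. The 5 genes do unlike work. PIP5K1A makes the membrane lipid phosphatidylinositol 4,5-bisphosphate. AATF is a nucleolar protein of the machinery that makes the small ribosomal subunit, also described as a regulator of transcription and cell survival. NEK1 is a kinase of primary cilia and the DNA damage response, PKMYT1 a membrane-bound kinase that holds CDK1 inactive before mitosis, and DEDD a death-effector-domain protein found in the nucleolus.

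Since RocA acts through purines in the leader, the 30 bases richest in purines were read from the annotated 5′ UTR of the transcripts of PIP5K1A, NEK1, PKMYT1 and DEDD in GENCODE 29 (GRCh38). Each is printed 5′ to 3′ on the transcript's strand, with its longest unbroken run of purines in capitals.
PIP5K1A: GAGAAGAGGAAGAAccggattgaaagagag
NEK1: tgtgaagttGGAGAGGcggtaacggaggca
PKMYT1: ctgacgggctgcactGGGGAGGGGGAGGAG
DEDD: gagccGAGAGAAGAGAcctgggaaattaag
The PIP5K1A stretch lies at chr1:151198936-151198965 on the plus strand and ends 31 bases before the start codon. The NEK1 stretch is at chr4:169612365-169612394 on the minus strand, and the PKMYT1 stretch at chr16:2980488-2980517 on the minus strand. The DEDD stretch spans an exon junction on the minus strand of chromosome 1, with bases 161132551 to 161132559 in the upstream exon and 161130827 to 161130847 in the downstream exon. For DEDD the entries uc001fxz.5, uc001fyb.5 and uc057mny.1 tied with the entry used, so its leader was taken by file order. Their 5′ ends differ, and uc001fxz.5, which starts at base 161132466, lacks the bases in the upstream exon.

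The leaders differed as much as the functions. PIP5K1A had 26 purines in its 30 bases, more than 91.4% of the tested genes with a leader of that length or longer, and an unbroken run of 14. DEDD had 23 purines and NEK1 and PKMYT1 22 each, against a median of 21 over all genes. Longer leaders offer more windows to choose from, and among genes with a leader of like length PIP5K1A exceeded 83.2%, DEDD 60.7%, PKMYT1 16.5% and NEK1 10.6%. For their length the leaders of PKMYT1 and NEK1 were thus among those with the fewest purines in the richest window. PKMYT1 nevertheless held the longest run of the 4 stretches, 15 purines, while the median longest run of a whole leader was 8. That stretch belongs to the PKMYT1 entry used alone: the other entries start downstream of it, the nearest at base 2980479. All 5 leaders were longer than the median of 173 nt over 9495 tested genes: 641 nt in NEK1, 509 nt in PKMYT1, 446 nt in PIP5K1A, 251 nt in AATF and 215 nt in DEDD. In the 4 leaders with a stretch printed above, the motif GAGA, read on the transcript strand only, occurred in each, and it occurred in 51.4% of all leaders. Among genes with a leader of like length it occurred in 93.6% (as for NEK1), 89.5% (PKMYT1), 85.4% (PIP5K1A) and 59.9% (DEDD), so most leaders as long as the first 3 hold it.

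The entries used were PIP5K1A uc001exi.4 (540 codons counted, chr1:151198551-151249536, plus strand), AATF uc002hni.3 (551 codons, chr17:36948875-37056871, plus), NEK1 uc003isb.3 (1249 codons, chr4:169393275-169612612, minus), PKMYT1 uc002csn.3 (490 codons, chr16:2972791-2980539, minus) and DEDD uc001fya.5 (309 codons, chr1:161120974-161132668, minus). PIP5K1A has close paralogues and a retrogene copy, PIPSL, so reads of that gene may be split by the authors' counting and its counts are less certain. Footprints on named genes totalled 987199 to 5886994 per DMSO library, 265759 to 1065529 at 0.3 µM and 87392 to 564471 at 3 µM, the lowest being NCI-H1650 at 3 µM. The 10 lung epithelial markers summed to 3842 to 19330 CPM (footprint counts scaled to the size of the library) in the lung lines and to 14.9 to 454 CPM in the melanoma lines. The 10 melanocyte markers summed to 19330 to 33140 CPM in Hs 936.T but only 358 to 461 CPM in A375. In NCI-H520 the melanocyte sum was 190 and 459 CPM with RocA and 685 and 1624 CPM with DMSO; the part of this in the results below was not tested. DMSO replicate 2 and the 3 µM library of NCI-H520 carry that line in the title and NCI-H521 in the cell-line label; without them every RocA value kept its direction.

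PIP5K1A, the lipid kinase, kept few of its footprints. The 2 DMSO libraries per line held 100 and 115 footprints for NCI-H1650, 128 and 126 for NCI-H520, 364 and 308 for Hs 936.T, and 337 and 459 for A375. At 0.3 µM RocA there were 1, 3, 13 and 2 footprints in the same order of lines, and at 3 µM there were 4, 6, 5 and 5. Scaled to library size, the 4 libraries lay between 3.48 and 13.8 CPM at 0.3 µM and between 9.68 and 34.8 CPM at 3 µM, all below the 8 DMSO libraries at 71.96 to 115 CPM. At each line's DMSO rate 182 footprints would have been counted at 0.3 µM, so the 19 found are 10.4% of that number (exact Poisson interval 6.29 to 16.3%, counting error only, like all such intervals here). At 3 µM the 20 found are 15.2% of 131.8 (9.27 to 23.4%). The higher dose did not leave fewer footprints than the lower dose, and the intervals overlap. Hs 936.T gave 13 of the 19 footprints at 0.3 µM, and without that line 5.50% was left (2.02 to 12.0%).

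AATF, the ribosome biogenesis factor, had the highest counts and the mildest loss of the 5. The DMSO libraries held 73 and 61 footprints for NCI-H1650, 226 and 275 for NCI-H520, 848 and 697 for Hs 936.T, and 617 and 988 for A375. In the same order of lines there were 3, 30, 68 and 23 at 0.3 µM and 4, 28, 38 and 27 at 3 µM. In CPM the lowest and highest libraries were 10.7 and 80.5 at 0.3 µM and 34.8 and 73.6 at 3 µM, against 52.9 and 204 under DMSO. Pooled over lines the treated and DMSO ranges overlap, because NCI-H1650 started low; within each line every RocA library lay below both DMSO libraries. The share left was 35.5% at 0.3 µM (124 of 349.6 footprints; 29.5 to 42.3%) and 37.2% at 3 µM (97 of 260.5; 30.2 to 45.4%). The intervals of the lines overlapped, with shares from 18.5% (3.82 to 54.1%) in NCI-H1650 to 40.6% (31.5 to 51.4%) in Hs 936.T at 0.3 µM. At 3 µM NCI-H1650 had 4 footprints where 6.64 were due, and its interval, 16.4 to 154%, includes no loss.

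A larger share of the remaining AATF footprints lay near the start of the coding sequence, a feature picked after its values were seen and given with no test. A short AATF entry covers codons 1 to 48 and 241 to 250 of the full-length entry. It held 17 of 124 footprints (13.7%) at 0.3 µM and 19 of 97 (19.6%) at 3 µM, against 235 of 3785 (6.21%) under DMSO. By library the share was 0, 10, 10.3 and 30.4% at 0.3 µM and 0, 21.4, 18.4 and 22.2% at 3 µM, for NCI-H1650, NCI-H520, Hs 936.T and A375, against 4.36 to 9.84% in the 8 DMSO libraries. NCI-H1650 had no footprint there at either dose, on totals of 3 and 4, and the other 3 lines exceeded every DMSO library. The same held for most genes. Over 740 genes with such a short entry at the start, the median ratio of the RocA to the DMSO share was 1.72 at 0.3 µM and 2.12 at 3 µM, and AATF, at 2.21 and 3.15, exceeded 72.8% and 81.9% of them.

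NEK1, the cilium and DNA damage kinase, was close to undetectable with RocA, from a low start. The DMSO libraries held 13 and 16 footprints for NCI-H1650, 6 and 12 for NCI-H520, 64 and 45 for Hs 936.T, and 27 and 46 for A375. At 0.3 µM a single footprint was counted in all 4 lines, in Hs 936.T, and at 3 µM there were 2, 1 each in NCI-H520 and Hs 936.T. All RocA libraries, at 0 to 2.49 CPM, lay below all DMSO libraries, at 5.38 to 13.9 CPM. The 0.3 µM footprint stands against 22.2 due at the DMSO rate, a 22.2-fold lower count with a counting interval of 3.98- to 875-fold. At 3 µM the count was 7.26-fold lower (2.01- to 59.9-fold). Without Hs 936.T the 0.3 µM count was 0 where 10.3 were due, 2.80-fold lower or more by the counting interval over the 3 libraries. At 3 µM it was then 8.02-fold lower (1.44- to 317-fold). By line, the counting intervals in Hs 936.T were 0.214 to 47.1% left at 0.3 µM and 0.39 to 85.8% at 3 µM. In A375 at 0.3 µM, with 0 of 4.09 footprints due, the interval reached 90.2% left. These intervals take the DMSO rate as fixed and are no test of a loss in a line. In NCI-H1650 and NCI-H520 at both doses, and in A375 at 3 µM, the intervals included no change.

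PKMYT1, the CDK1-inhibiting kinase, kept fewer footprints at 3 µM than at 0.3 µM over the 4 lines together, and at 0.3 µM kept most in Hs 936.T. The 2 DMSO libraries per line held 31 and 31 footprints for NCI-H1650, 84 and 72 for NCI-H520, 190 and 156 for Hs 936.T, and 161 and 215 for A375. There were 0, 2, 17 and 3 at 0.3 µM and 0, 0, 2 and 0 at 3 µM. The treated libraries reached 18.1 CPM at 0.3 µM and 3.87 CPM at 3 µM, in both cases in Hs 936.T, and all lay below the lowest DMSO library at 26.5 CPM. At 0.3 µM 24.5% was left (22 of 89.7; 15.4 to 37.1%) and at 3 µM 2.95% (2 of 67.9; 0.357 to 10.6%), a 33.9-fold lower count at 3 µM with an interval of 9.40- to 280-fold. Hs 936.T carried the 0.3 µM value: 45.3% was left there (26.4 to 72.5%), against 8.47% in NCI-H520 (1.03 to 30.6%) and 14.2% in A375 (2.94 to 41.6%), and 0 of 7.499 footprints in NCI-H1650. Without Hs 936.T 9.58% was left at 0.3 µM (5 of 52.2; 3.11 to 22.4%). At 3 µM there was then no footprint where 47.3 were due, 12.8-fold lower or more by the counting interval (0 to 7.80% left). Without Hs 936.T the intervals of the doses thus overlap, and they also overlap within each line.

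DEDD, the death-effector-domain protein, was left with 3 footprints at 0.3 µM and 2 at 3 µM over the 4 lines. The DMSO libraries held 21 and 24 footprints for NCI-H1650, 18 and 29 for NCI-H520, 56 and 51 for Hs 936.T, and 73 and 114 for A375. With 0.3 µM RocA it had 0, 0, 2 and 1 footprints, and with 3 µM 1, 0, 1 and 0. The treated libraries lay at 0 to 8.69 CPM and the DMSO libraries at 12.0 to 21.5 CPM, with no overlap. The count was 11.5-fold lower at 0.3 µM (3 where 34.6 were due; 3.95- to 55.99-fold) and 12.8-fold lower at 3 µM (2 where 25.6 were due; 3.54- to 106-fold). The highest treated value, 8.69 CPM in NCI-H1650 at 3 µM, is a single footprint in the shallowest library. Without Hs 936.T a single footprint was left at each dose, 23.0-fold (4.13- to 910-fold) and 19.2-fold (3.45- to 760-fold) lower than the DMSO rate.

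**Figure D1:**
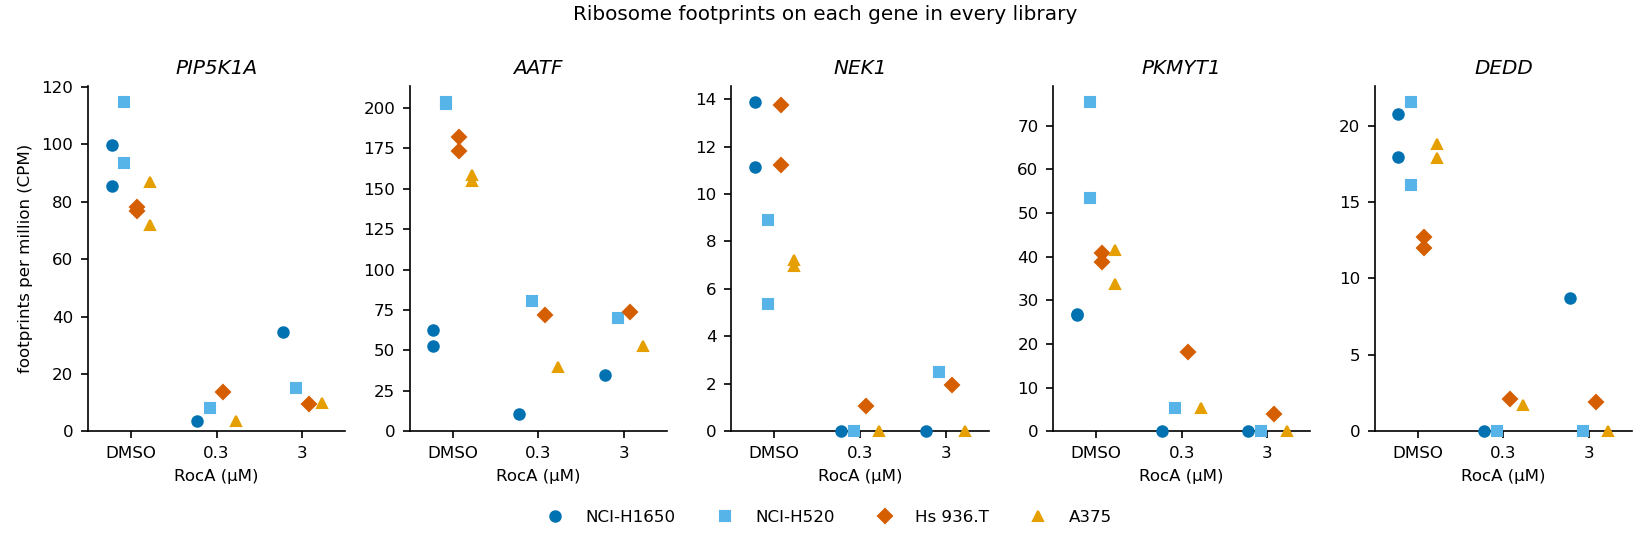
Footprint level (CPM, vertical axes from 0) on each gene in every library, by dose, with 1 point per library and a colour and symbol per cell line; each line has 2 DMSO libraries and 1 at each RocA dose. AATF in NCI-H1650 starts at 52.9 and 62.5 CPM, below the other lines, and PKMYT1 at 0.3 µM stays highest in Hs 936.T, at 18.1 CPM.

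**Figure D2:**
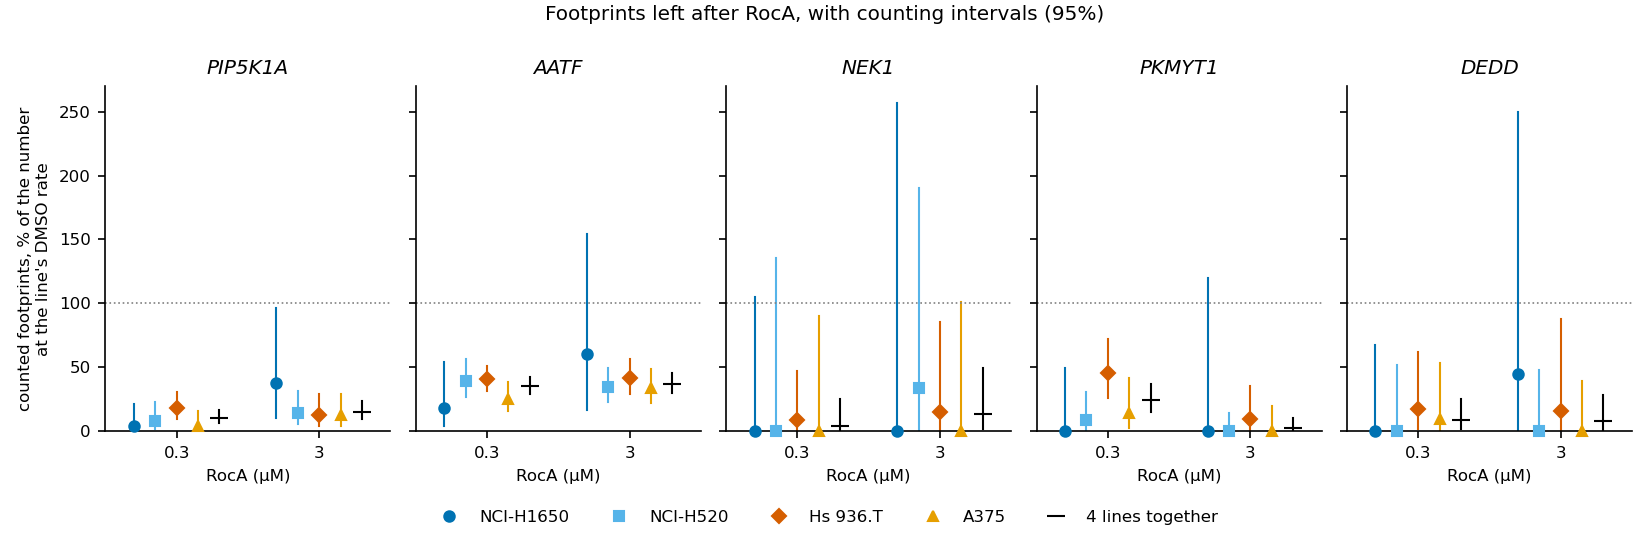
Counted footprints as a percentage of the number due at the line's DMSO rate, by gene, line and RocA dose; vertical bars are exact Poisson 95% intervals of the RocA count, black marks are the 4 lines together and the dotted line marks no change. AATF keeps 35.5% and 37.2% over all lines, and PKMYT1 2.95% at 3 µM.

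In one fit across all 9815 genes that passed the filter on low counts, all 5 genes were called lower at both doses, where 32.5% of all tested genes were called lower at 0.3 µM and 32.1% at 3 µM. Since the choice of genes used these contrasts, nothing is read from that count. PIP5K1A, NEK1, PKMYT1 and DEDD passed the filter only because of their DMSO libraries. Both doses are compared with the same DMSO libraries. The fitted log2 changes at 0.3 µM were -4.27 ± 0.74 (SE) for NEK1, -3.47 ± 0.54 for DEDD, -3.27 ± 0.26 for PIP5K1A, -2.05 ± 0.31 for PKMYT1 and -1.53 ± 0.15 for AATF. At 3 µM they were -5.01 ± 0.58 for PKMYT1, -3.60 ± 0.64 for DEDD, -2.80 ± 0.70 for NEK1, -2.72 ± 0.27 for PIP5K1A and -1.43 ± 0.16 for AATF. Over all tested genes the median was -0.09 at 0.3 µM and -0.16 at 3 µM. A share of 0.0204% of tested genes had a lower value than NEK1 at 0.3 µM, 0.163% than DEDD, 0.224% than PIP5K1A and 3.53% than PKMYT1. AATF, below which 9.64% of genes lay at 0.3 µM and 14.8% at 3 µM, is thus not among the most strongly reduced genes. At 3 µM the shares were 0.122% for PKMYT1, 0.53% for DEDD, 1.68% for NEK1 and 1.91% for PIP5K1A. The SE of a log2 change, here and below, was derived from the test: the change divided by the square root of its F value. Where few footprints were left, as for NEK1, DEDD and PKMYT1 at 3 µM, this SE understates the counting error that the intervals above show.

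**Figure D3:**
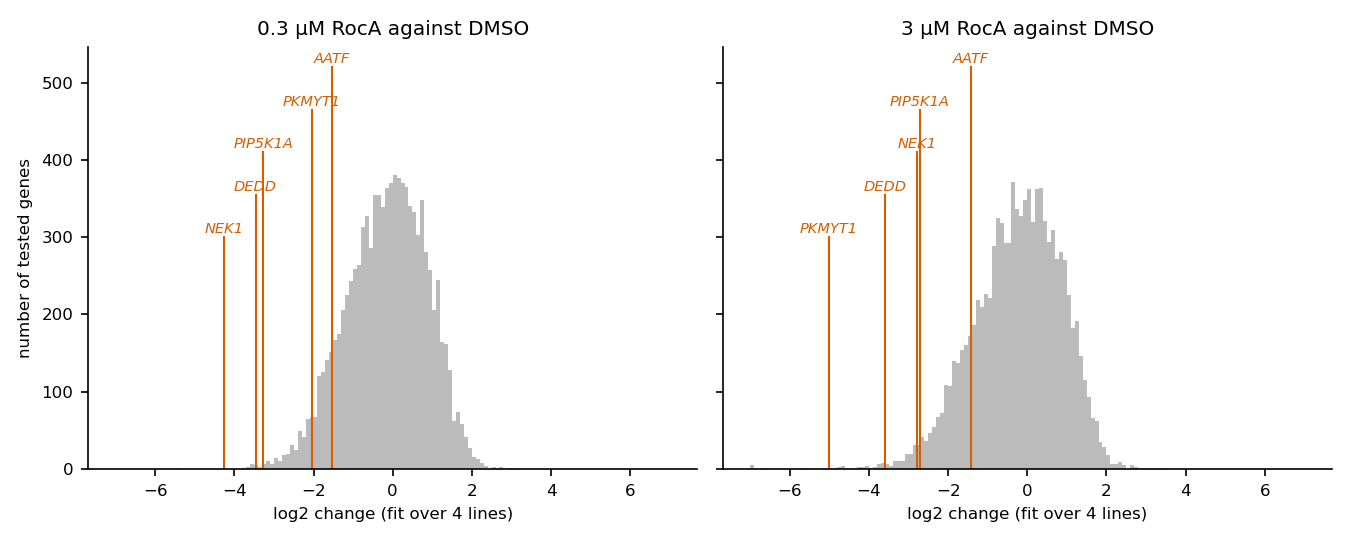
Number of tested genes (vertical axis) by fitted log2 change with 0.3 µM (left) and 3 µM RocA (right) against DMSO; vertical lines mark the 5 genes, with line heights chosen for legibility only and changes beyond the axis drawn in the outermost bins. AATF sits on the shoulder of the distribution at -1.53 and -1.43, and the other genes lie further to the left, PKMYT1 at 0.3 µM the nearest to AATF at -2.05.

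Under DMSO the genes spanned a wide range of footprint density. Per 1000 codons, AATF had 270 ± 107 CPM (SD, n = 8), PIP5K1A 164 ± 25.9, PKMYT1 86.0 ± 32.6, DEDD 55.8 ± 11.2 and NEK1 7.84 ± 2.55. AATF was denser than 80.2% of the genes tested with RocA and NEK1 than 3.03% of them. Lines were compared over the 8 DMSO libraries, where p-values measure the spread between libraries that the labels do not say came from separate cultures.

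AATF had the largest differences of the 5 genes between the untreated lines. It averaged 57.7 ± 6.79 CPM in NCI-H1650 (SD, n = 2, as for all line means), against 203 ± 0.999 for NCI-H520, 178 ± 6.02 for Hs 936.T and 157 ± 2.81 for A375. NCI-H1650 was lower than NCI-H520 by a log2 difference of -1.85 ± 0.14 (edgeR quasi-likelihood, Benjamini-Hochberg adjusted p = 2.1e-15), than Hs 936.T by -1.73 ± 0.13 (adjusted p = 1e-15) and than A375 by -1.49 ± 0.13 (adjusted p = 1.8e-13). NCI-H520 and Hs 936.T, next to each other at the top, did not differ beyond their spread (0.12 ± 0.10; edgeR adjusted p = 0.31). Hs 936.T exceeded A375 by 0.23 ± 0.09 (edgeR adjusted p = 0.025), a call that was lost without either Hs 936.T library (0.19, adjusted p = 0.2, and 0.28, adjusted p = 0.052), without A375 replicate 2 (0.21, adjusted p = 0.11) and in DESeq2.

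PKMYT1 followed the same order of lines at lower levels. It averaged 26.7 ± 0.237 CPM in NCI-H1650, against 64.4 ± 15.5 for NCI-H520, 39.8 ± 1.38 for Hs 936.T and 37.6 ± 5.48 for A375. NCI-H1650 was lower than NCI-H520 by -1.28 ± 0.23 (edgeR adjusted p = 4.3e-06) and than Hs 936.T by -0.68 ± 0.21 (edgeR adjusted p = 0.0043). NCI-H520 exceeded Hs 936.T by 0.60 ± 0.17 (edgeR adjusted p = 0.0019), but by 0.35 without its own replicate 1 (edgeR adjusted p = 0.18). The NCI-H1650 to A375 difference, -0.52 ± 0.21 (edgeR adjusted p = 0.029), was not called without either NCI-H1650 library, without A375 replicate 1 or with DESeq2 size factors (adjusted p = 0.13, 0.099, 0.13 and 0.057), and Hs 936.T and A375 did not differ beyond their spread (0.16 ± 0.14).

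The other 3 genes were more even. PIP5K1A ran from 104 ± 15.04 CPM in NCI-H520 through 92.6 ± 9.95 in NCI-H1650 and 79.4 ± 10.5 in A375 to 77.4 ± 1.03 in Hs 936.T, with no called difference between neighbours in that order. NCI-H520 exceeded A375 by 0.38 ± 0.14 and Hs 936.T by 0.35 ± 0.14 (edgeR adjusted p = 0.018 and 0.028), and both calls were lost without NCI-H520 replicate 1 (0.22, adjusted p = 0.3, and 0.20, adjusted p = 0.36). NEK1 had 12.5 ± 1.94 CPM in NCI-H1650 and 12.5 ± 1.79 in Hs 936.T, against 7.14 ± 2.49 in NCI-H520 and 7.08 ± 0.183 in A375. Hs 936.T exceeded A375 by 0.87 ± 0.25 (edgeR adjusted p = 0.0021), a call lost without Hs 936.T replicate 1 (0.70, adjusted p = 0.063), while NCI-H520 lay below Hs 936.T by -0.85 ± 0.37 at an edgeR adjusted p of 0.043 that missed the threshold in several alternatives. DEDD had 19.4 ± 1.998 CPM in NCI-H1650, 18.8 ± 3.803 in NCI-H520, 18.3 ± 0.654 in A375 and 12.4 ± 0.478 in Hs 936.T. Its only called difference was Hs 936.T below A375 by -0.51 ± 0.20 (edgeR adjusted p = 0.02), lost without either Hs 936.T library or A375 replicate 1 (adjusted p = 0.11, 0.066 and 0.054).

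Differences between lines were common for all genes, and the counts of the 5 genes called are read against that. Of 12172 genes tested, 59.1% were called in either direction between NCI-H1650 and NCI-H520, 69.2% between NCI-H1650 and Hs 936.T and 64% between NCI-H1650 and A375, and in each of these 3 pairs 2 of the 5 genes (AATF and PKMYT1) were called. The background was 59.1% between NCI-H520 and Hs 936.T, 56.7% between NCI-H520 and A375 and 64.3% between Hs 936.T and A375, with 3 of the 5 genes called in each. The counts for NCI-H1650 are below the background share, and 3 of 5 is close to it in the other pairs.

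**Figure D4:**
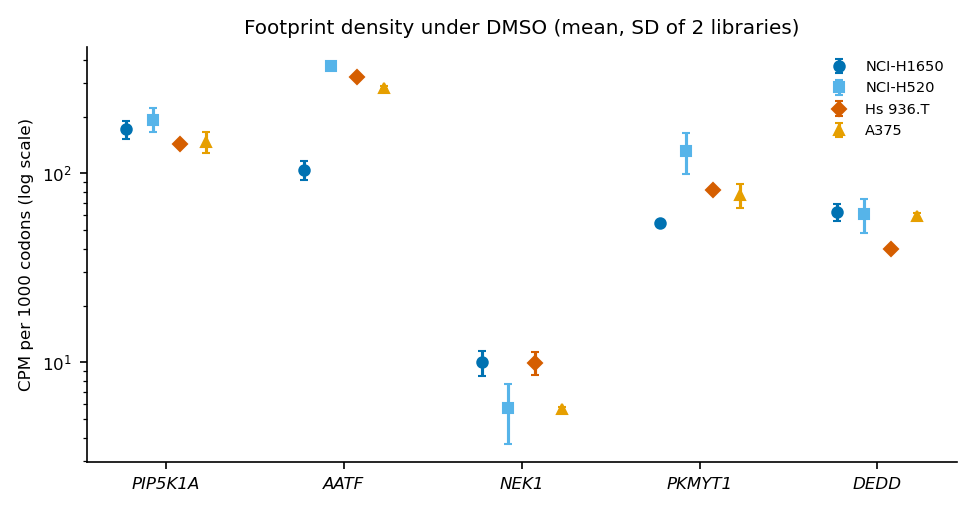
Footprint density under DMSO in CPM per 1000 codons (logarithmic vertical axis) by gene and cell line; points are means and bars the SD of 2 libraries. AATF in NCI-H1650 stands below the other 3 lines, and NEK1 is the sparsest gene in every line.

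Other genes of each pathway were counted from lists that leave the 5 genes out. At 0.3 µM 27.6% of all tested genes were called higher, and 25.1% at 3 µM, beside the shares called lower given above. Among 40 tested phosphoinositide enzymes, 5 rose and 13 fell at 0.3 µM (median log2 change -0.32), and 2 rose and 18 fell at 3 µM (median -0.84). The paralogues PIP5K1B and PIP5K1C were too low to test, with 9 PIP5K1C footprints at 0.3 µM and 5 at 3 µM, against 214 under DMSO. PIP4K2C, a kinase that makes the same lipid from another precursor, was at -0.02 ± 0.20 and -0.34 ± 0.25 (edgeR adjusted p = 0.95 and 0.25). Its equally close relatives lay on either side of 0 and were not called. PIP4K2A was at -0.77 ± 0.36 and -0.98 ± 0.45 (edgeR adjusted p = 0.061 and 0.064). PIP4K2B was at 0.52 ± 0.30 and 0.49 ± 0.34 (edgeR adjusted p = 0.14 and 0.22). PLCG1, the phospholipase that cleaves the lipid PIP5K1A makes, rose by 1.07 ± 0.14 at 0.3 µM (edgeR adjusted p = 1.3e-08) and was at 0.35 ± 0.17 at 3 µM (adjusted p = 0.077). INPP4B, a phosphatase of the pathway, was at -0.22 ± 0.25 and 0.36 ± 0.25 (edgeR adjusted p = 0.46 and 0.23).

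The small-subunit processome, the nucleolar machine that AATF serves, had more genes higher than lower. Of 53 tested genes 25 rose and 13 fell at 0.3 µM (median 0.33), and 27 rose and 9 fell at 3 µM (median 0.47). NCL, the abundant nucleolar protein nucleolin, rose by 0.69 ± 0.10 and 0.60 ± 0.10 (edgeR adjusted p = 2.5e-07 and 6.1e-06), and TSR1, a late assembly factor of the small subunit, by 1.48 ± 0.11 and 1.5 ± 0.12 (adjusted p = 2.3e-14 and 1.1e-13). The direct partners of AATF split, and are named here after their values were seen. NGDN rose by 0.51 ± 0.16 and 0.86 ± 0.17 (edgeR adjusted p = 0.007 and 3.5e-05), with the 0.3 µM call lost without NCI-H520 (0.40, adjusted p = 0.059). NOL10 fell, by log2 changes of -0.53 ± 0.18 and -0.96 ± 0.21 (edgeR adjusted p = 0.009 and 0.00021), with the 0.3 µM call lost without Hs 936.T (-0.34, adjusted p = 0.18). UTP3 had the lowest change of the list at both doses, -2.03 ± 0.22 and -1.79 ± 0.25 (edgeR adjusted p = 4.3e-10 and 7.8e-08).

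Under DMSO these genes were low in NCI-H1650, as AATF was. With NCI-H1650 first, 40 of the 53 were lower and 2 higher than in NCI-H520 (median log2 difference -0.94), 37 lower and 3 higher than in Hs 936.T (median -0.73), and 46 lower and 0 higher than in A375 (median -1.11; under DESeq2 size factors 45 lower and 1 higher). Over all tested genes 28.7%, 33.8% and 31.8% were called lower in the same order of pairs and 30.5%, 35.4% and 32.2% higher, and the medians were 0.02, 0.02 and -0.01. Without either NCI-H1650 library, 33 to 45 of the 53 were still lower.

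Few NIMA-related kinases other than NEK1 could be tested. Of 5, none rose and 2 fell at 0.3 µM (median -0.14), and none rose and 4 fell at 3 µM (median -1.09). NEK2, the centrosome kinase of this family, fell, by log2 changes of -0.84 ± 0.23 and -1.62 ± 0.30 (edgeR adjusted p = 0.0016 and 1.3e-05). NEK9, which activates NEK6 and NEK7 in mitosis, was at -0.14 ± 0.20 at 0.3 µM (edgeR adjusted p = 0.56) and fell by 0.86 ± 0.26 at 3 µM (adjusted p = 0.0054), a call lost without NCI-H520 (-0.71, adjusted p = 0.057). None had a change as low as NEK1.

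Among 24 tested genes of CDK1 activation and mitotic entry, 4 rose and 13 fell at 0.3 µM (median -0.51), and 5 rose and 12 fell at 3 µM (median -0.44). WEE1, the other kinase that inhibits CDK1, fell, with log2 changes of -0.56 ± 0.22 and -0.98 ± 0.28 (edgeR adjusted p = 0.03 and 0.0029); the 0.3 µM call was lost without Hs 936.T or A375 (-0.45, adjusted p = 0.24, and -0.44, adjusted p = 0.14) and the 3 µM call without Hs 936.T (-0.85, adjusted p = 0.051). CCNB1, the cyclin of CDK1, fell, with -0.47 ± 0.12 and -0.37 ± 0.12 (edgeR adjusted p = 0.00066 and 0.0082), with the 3 µM call lost without A375 (-0.32, adjusted p = 0.083), and CKS2, a CDK1-binding subunit, rose by 0.61 ± 0.12 and 0.66 ± 0.12 (adjusted p = 3.3e-05 and 1.9e-05). CDC25A, a phosphatase that removes the phosphates PKMYT1 and WEE1 put on CDKs, is named after its values were seen. It was the only other gene of the list below -3 at 3 µM, with -2.07 ± 0.29 at 0.3 µM and -3.64 ± 0.44 at 3 µM (edgeR adjusted p = 9.5e-08 and 3.4e-09). These values rest on 16 footprints at 0.3 µM and 4 at 3 µM, against 822 under DMSO. Among regulators of CDK1, an inhibitor (WEE1) and an activator (CDC25A) both fell.

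Among 26 tested genes of death-domain apoptosis, 2 rose and 13 fell at 0.3 µM (median -0.63), and 5 rose and 9 fell at 3 µM (median -0.33). DEDD2, the paralogue of DEDD, moved in the other direction: it rose by 1.31 ± 0.35 at 0.3 µM and 2.0 ± 0.34 at 3 µM (edgeR adjusted p = 0.0015 and 3.8e-06), with 28 and 35 footprints, against 112 in the deeper DMSO libraries. CYCS, cytochrome c, fell, with log2 changes of -2.24 ± 0.14 and -1.98 ± 0.14 (edgeR adjusted p = 8e-17 and 1.1e-14), and DAP3, a mitochondrial ribosomal protein tied to apoptosis, fell with -1.32 ± 0.14 and -1.04 ± 0.15 (adjusted p = 2e-10 and 1.5e-07). APAF1, which cytochrome c binds to activate caspase-9, is named after its values were seen. It fell, with -2.41 ± 0.49 and -4.25 ± 0.82 (edgeR adjusted p = 6.1e-05 and 3.1e-05), on 6 and 1 footprints with RocA, against 347 under DMSO.

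**Figure D5:**
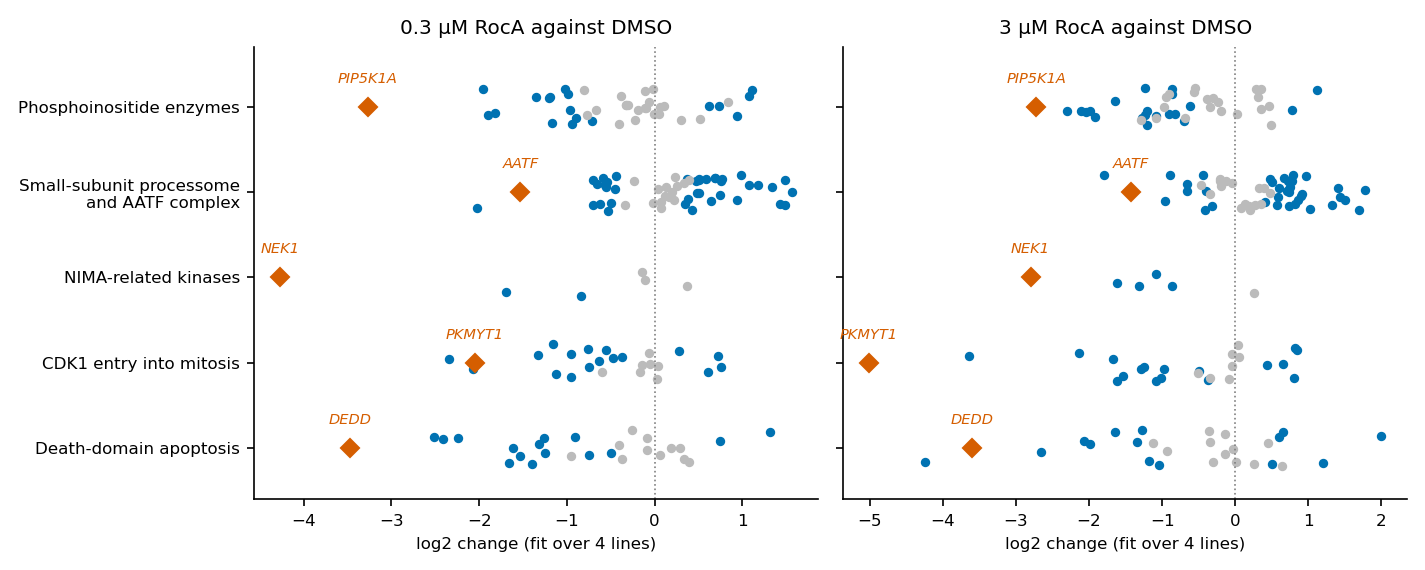
Fitted log2 change with 0.3 µM (left) and 3 µM RocA (right) against DMSO for the genes of each list (rows); blue points were called at an adjusted p under 0.05, grey points were not, and orange diamonds mark the 5 genes. AATF at -1.53 and -1.43 lies left of every gene in its row except UTP3, in a list whose median is 0.33 and 0.47. DEDD2 is the rightmost point of its row at 3 µM, at 2.0.

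Likeness of pattern was described by Pearson's r of log2 CPM over the 16 libraries, which share dose, line and depth, so high values are common. The genes most like PIP5K1A were GRB2, an adaptor of growth factor receptors (r = 0.97), SRP14 (0.96) and EMC3 (0.96), and GRB2 had changes of -3.15 and -3.10. The genes most like AATF were RBM26 (0.95), SLC25A4 (0.95) and KIF4A (0.94). For NEK1 they were LMBRD2 (0.98), PPP3R1 (0.95) and PAIP2 (0.95), for PKMYT1 TAF6 (0.95), PHB (0.95) and PPP2R2A (0.94), and for DEDD PTPN11, SFT2D1 and FBXO30 (0.94 each). LMBRD2 had 2 footprints at 0.3 µM and 2 at 3 µM, so its likeness to NEK1 with RocA is one of counts near the floor.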

How the data were processed

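The deposited files hold raw footprint counts per transcript entry and the number of codons counted, per the file headers and values; the authors used CASAVA 1.8, Bowtie2 2.1.0 and TopHat2 2.0.9 with hg38, per the submitters' processing notes. Entries carry no gene names. The series of coding lengths along the 182398 entries (codons less 10) was aligned to GENCODE 29, which named 97.3% of coding entries. A decoy with the lengths shuffled within each chromosome named 0. It shared no unique series of 4 lengths with the entries to start an alignment from, so it gives no error rate for single entries. Reads repeat over a gene's entries, so 1 entry per gene was used, and 79 genes with identical counts were dropped. The leader sequence of AATF and its motif count are not reported here. The 5 genes and all lists were chosen with earlier results of these data known.

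The gene counts went into edgeR 4.0.16 under R 4.3.3 (TMM, filterByExpr with a minimum count of 10, robust quasi-likelihood test, 2-sided, Benjamini-Hochberg over all genes, calls at 0.05), with DESeq2 1.42.0 as an alternative. The RocA fit used 16 libraries with terms for line and dose, the 4 lines serving as replicates of a dose; DMSO lines were compared over 8 libraries. Numbers due at the DMSO rate come from each line's summed DMSO counts scaled to the treated library. Related genes named by rule are the 2 most abundant of each list and the closest relative. PIP4K2A and PIP4K2B were added to PIP4K2C after their values were seen. Scripts were tested on simulated data. Replicate numbers did not pair the lines (correlations of replicate differences -0.02 to 0.07). The variance between DMSO replicates was 1.53 to 2.58 times that of counting error alone.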

Additional observations from a re-analysis of the deposited data

Results flagged for a closer look

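A library was picked out where it stood apart from all others of its dose. NEK1 had 1.06 CPM in Hs 936.T at 0.3 µM, where the other 3 lines were at 0, and PKMYT1 had 3.87 CPM in Hs 936.T at 3 µM, where the other 3 lines were at 0. These values rest on 1 and 2 footprints. Chance picks out about 1 in 20 groups by this criterion where values spread normally. With 3 lines at 0, any single footprint in the other line meets it, so that rate does not hold here. Hs 936.T was the deepest library at 0.3 µM.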

How the results depend on the processing

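The 5 genes kept a negative, called change with RocA under every alternative that could be fitted, with log2 changes of -4.18 to -3.02 and -3.01 to -2.60 for PIP5K1A at 0.3 and 3 µM, -1.73 to -1.39 and -1.62 to -1.33 for AATF, -6.90 to -3.99 and -3.49 to -2.39 for NEK1, -3.38 to -1.74 and -9.34 to -4.33 for PKMYT1, and -4.41 to -3.15 and -4.44 to -2.95 for DEDD. The genes were chosen by these contrasts and the alternatives refit the same libraries, so no support is read from the kept calls. NEK1 was too low to test in 7 alternatives and DEDD in 1. All 144 counts of called genes stayed within 1.5 times. Under DMSO 446 values of the 5 genes kept their side of the threshold, 31 lost a call and 3 gained one; the 3 AATF differences of NCI-H1650 were never lost. With the replicate number as a block, which changed no call of the 5 genes, 7143 genes were called between NCI-H1650 and NCI-H520 and AATF was at -1.85. Changes per line moved by more than the DMSO spread in 47 of 80 recomputations, the cause of which was not tested. For related genes, alternatives added after the data were seen ended 13 calls and added 3 of 272. Depth limits NEK1 and DEDD, whose RocA values rest on 1 to 3 footprints per dose.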
